A study of Sus scrofa with 33 samples.

Results

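KIT and KITLG, a receptor and its ligand, were followed over the pituitary arrays of 3 genetic groups of pigs, Large White (LW), Creole (CR) and their F1 cross, under thermoneutral (TN) or heat stress (HS) conditions. They are 2 of the 10258 genes that could be named in the authors' normalized table. A probe was taken for them when the array files named its gene KIT or KITLG, which gave 5 of the 60305 probes of the array, 4 for KIT and 1 for KITLG. A further 2 probes carried only a transcript accession that a table of pig genes assigns to KIT or KITLG, and they are described beside the others. All 7 were among the 45667 probes of the table. The pair of genes was selected on the breed difference of KIT in these same arrays, so the levels of both genes by breed are given as a description with no test.

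The 33 arrays came from 33 animals, 5 LW TN, 6 LW HS, 5 CR TN, 6 CR HS, 6 F1 TN and 5 F1 HS, so that each genetic group had 11 arrays. The pigs of a breed were raised as 3 blocks of littermates, which the labels do not mark, so arrays of a breed include siblings that are counted here as independent. Every animal was a castrated male that entered the trial at 11 weeks of age. TN meant 24 °C and HS meant up to 5 days of heat before slaughter, for which the sample labels give 30 °C and the series text 32 °C. Slaughter of the TN pigs preceded the rise in temperature and that of the HS pigs followed it, so temperature cannot be told apart from slaughter day and age. On 1 array, LW HS 3, the title names Large White and the breed field Creole, and it was analysed by its title. KIT was selected with this array counted as LW, so its KIT level is no check of that reading.

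KIT is a receptor tyrosine kinase at the cell surface. Its ligand KITLG, also called stem cell factor, pairs 2 receptor molecules, which then phosphorylate each other and recruit adaptors such as GRB2 and the regulatory subunits of PI3 kinase. The pathway is best known for the survival and migration of melanocytes, mast cells, germ cells and blood progenitors, and structural variants at the KIT locus are the textbook basis of the dominant white coat of Large White pigs.

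The KIT probes fall in separate stretches of the transcript. The array files start A_72_P180731 at base 2784, A_72_P441559 at base 3525 and A_72_P165111 at base 3624, and they are called by these bases here. They give no transcript position for the KIT probe O299. No genome build is named in the array files, so no genome coordinates are given. The sequences show which probes are independent measurements. Capitals mark bases shared with another KIT or KITLG probe, and the probes at bases 3525, 3624 and 1152 are shown by their first 30 of 60 bases.
KIT base 2784: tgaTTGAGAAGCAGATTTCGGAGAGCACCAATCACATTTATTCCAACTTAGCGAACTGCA
KIT O299: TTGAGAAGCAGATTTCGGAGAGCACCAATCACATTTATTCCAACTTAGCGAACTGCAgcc
KIT base 3525: ttttactcctgacctggtttctaagtagtt
KIT base 3624: TCATGTTCACATATTTGAGGGGGGAAAACC
KITLG base 1152: TTCCATAAGTGAATTATGCATTCTCAGGTT
The probe at base 2784 and O299 share 57 bases and so read the same stretch. The probe at base 3525 shares no run of 20 bases with any other probe and ends 39 bases before the probe at base 3624 begins. The KIT probe named by accession only has all 60 bases of the probe at base 3624, and the KITLG probe named by accession only has all 60 of the probe at base 1152. These copies are separate spots of the same sequence on each array and count as technical repeats. No other probe of the array shares a run of 20 bases, on either strand, with any of the 7.

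The tissue was described as the anterior lobe of the pituitary, and all 7 anterior hormone genes on the list used here were well above background on 33 of 33 arrays. GH1 (growth hormone) had a log2 level of 19.02 and POMC, the precursor of corticotropin, 19.01. The posterior lobe peptides AVP (vasopressin) and OXT (oxytocin) were also well above background on 33 of 33 arrays, at 16.98 and 15.66. Their part in the KIT values was not tested. Between 73.5% and 82.2% of the spots of an array were well above background, and no spot was saturated.

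KIT was high in Large White, low in Creole and in between in the F1. On the probe at base 3624 the LW TN arrays read 10.62, 10.63, 11.07, 11.31 and 11.34, and the LW HS arrays ran from 10.46 to 11.06 with a median of 10.89. The F1 TN arrays ran from 10.05 to 10.31 with a median of 10.18, and the F1 HS arrays read 10.01, 10.07, 10.08, 10.28 and 10.36. The CR TN arrays read 8.96, 9.23, 9.28, 9.34 and 9.61, and the CR HS arrays ran from 8.91 to 9.58 with a median of 9.32. The lowest LW array lay 0.09 above the highest F1 array and the lowest F1 array lay 0.40 above the highest CR array, so the 33 arrays fell into 3 bands by breed with no overlap. Within LW TN, 2 arrays lay near 10.6 and the other 3 above 11, while within each breed the TN and HS arrays overlapped.

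The breed means on this probe were 10.91 ± 0.28 in LW, 10.18 ± 0.12 in the F1 and 9.28 ± 0.23 in CR (SD, n = 11 each). LW exceeded CR by 1.62 on the log2 scale (SE 0.09), a 3.08-fold difference. In raw pixel intensity the medians were 1861, 1130 and 628 against a local background of 42 to 44. In bulk tissue, more KIT per cell and more cells that carry KIT cannot be told apart.

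The separation recurred on the other probe of the far end of the transcript. At base 3525 the LW TN arrays read 10.31, 10.37, 10.86, 11.09 and 11.14, the F1 HS arrays 9.70, 9.84, 9.88, 9.94 and 10.13, and the CR TN arrays 8.83, 9.08, 9.08, 9.19 and 9.45. The LW HS arrays ran from 10.39 to 10.93 (median 10.68), the F1 TN arrays from 9.73 to 10.17 (median 9.91) and the CR HS arrays from 8.80 to 9.44 (median 9.16). Again no array of one breed reached the range of another, with 0.14 between LW and F1 and 0.25 between F1 and CR. LW exceeded CR by 1.57 (SE 0.09), or 2.97-fold. The probe named by accession only gave 10.98 ± 0.29 in LW, 10.28 ± 0.10 in the F1 and 9.40 ± 0.18 in CR, and LW also exceeded CR by 1.57 (SE 0.09).

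The probes at bases 3624 and 3525 and the copy named by accession were the 3 probes, of 45667 (0.00657%), on which LW, F1 and CR arrays did not overlap in that order, and 0 probes separated the 3 breeds in any other order. For LW above CR without overlap there were 81 probes (0.177%), 4 of them for KIT. Since KIT was chosen for its breed difference, these counts describe where it stands and test nothing. The separation held in the reprocessed scanner intensities, after normexp background correction and in the processed signal, where the smallest gap for any of the 3 probes was 0.02. It rests on reading LW HS 3 by its title, since with that array counted as Creole the LW and CR ranges overlapped on all 5 KIT probes.

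**Figure D1:**
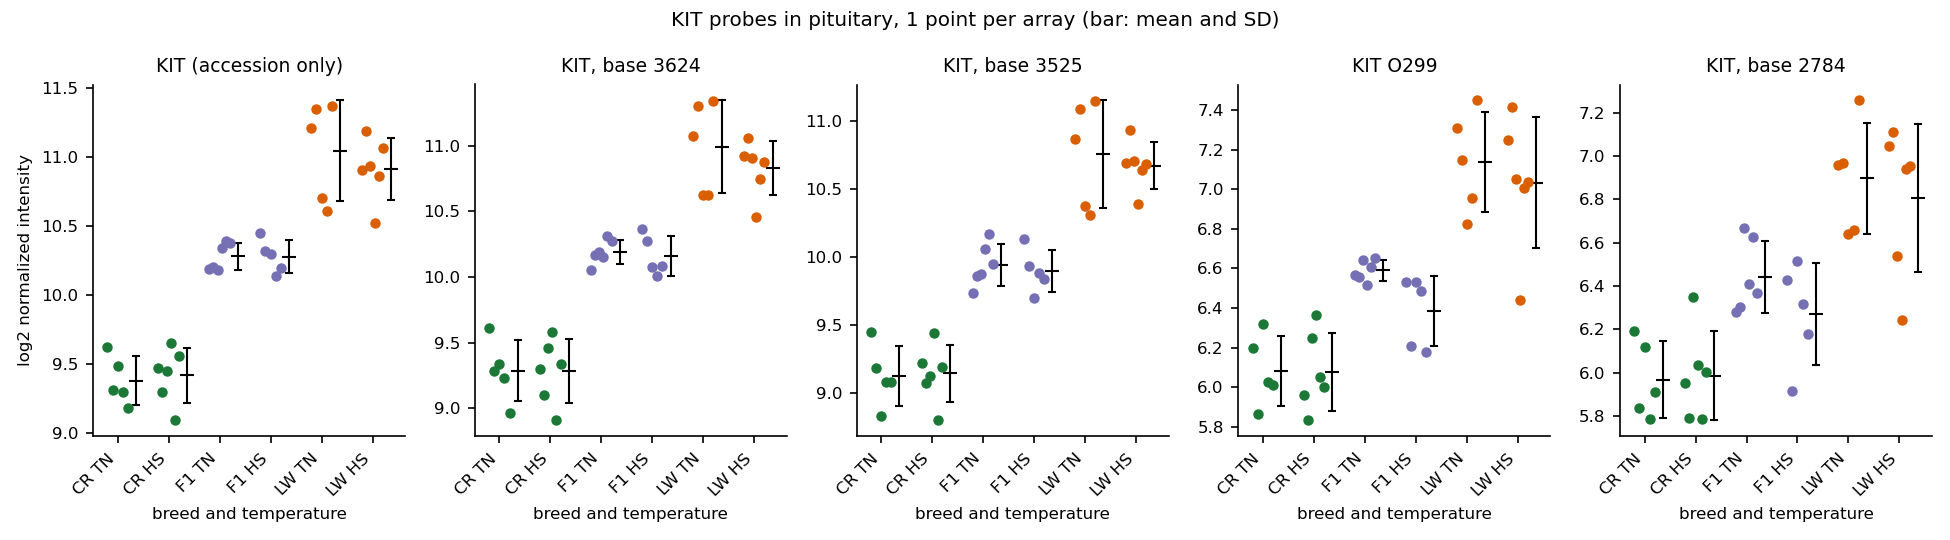
Log2 normalized intensity (y axis) of 5 KIT probes in each breed and temperature group (x axis), with 1 point per array and the group mean and SD in black, each panel on its own scale. On the 3 panels at left the arrays form 3 bands, CR lowest and LW highest, and TN and HS arrays of a breed overlap.

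The 2 probes of the upstream stretch kept the order of the breeds with less distance between them. O299 averaged 7.08 ± 0.29 in LW, 6.50 ± 0.16 in the F1 and 6.08 ± 0.18 in CR. Its lowest LW array, 6.44, lay just above the highest CR array, 6.36, while F1 arrays overlapped both parents. The probe at base 2784 averaged 6.85 ± 0.29, 6.36 ± 0.21 and 5.98 ± 0.18, and here the lowest LW array, 6.24, fell below the highest CR array, 6.35. All 5 KIT probes were well above background on 33 of 33 arrays, but this pair was much nearer to it, with a median raw intensity in CR of 64 and 61 against a local background of 37 and 42.

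The size of the breed difference on the upstream pair moved with the signal used. The authors' values were made without background subtraction, and on them LW exceeded CR by 1.00 (SE 0.09) on O299 and by 0.87 (SE 0.10), or 1.83-fold, at base 2784. In the processed signal, from which the scanner software had subtracted background and which was scaled to the 75th percentile of each array in place of quantile normalization, the differences were 1.46 (SE 0.12) and 1.43 (SE 0.15), or 2.76-fold and 2.70-fold. On the probes at bases 3624 and 3525 the same change of signal moved the difference from 1.62 to 1.69 (SE 0.10) and from 1.57 to 1.64 (SE 0.10). In the processed signal the 5 KIT probes lay between 1.43 and 1.69, against 0.87 to 1.62 in the authors' values. Each choice was also changed alone, in alternatives added after seeing the data. The processed signal with quantile normalization gave 1.48 (SE 0.13) on O299 and 1.45 (SE 0.15) at base 2784, and the median intensity without background subtraction, scaled to the 75th percentile, gave 1.01 (SE 0.09) and 0.88 (SE 0.10). With normexp correction and an offset of 50 intensity units, which pulls dim probes together, the upstream pair gave 0.73 (SE 0.07) and 0.69 (SE 0.08).

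**Figure D2:**
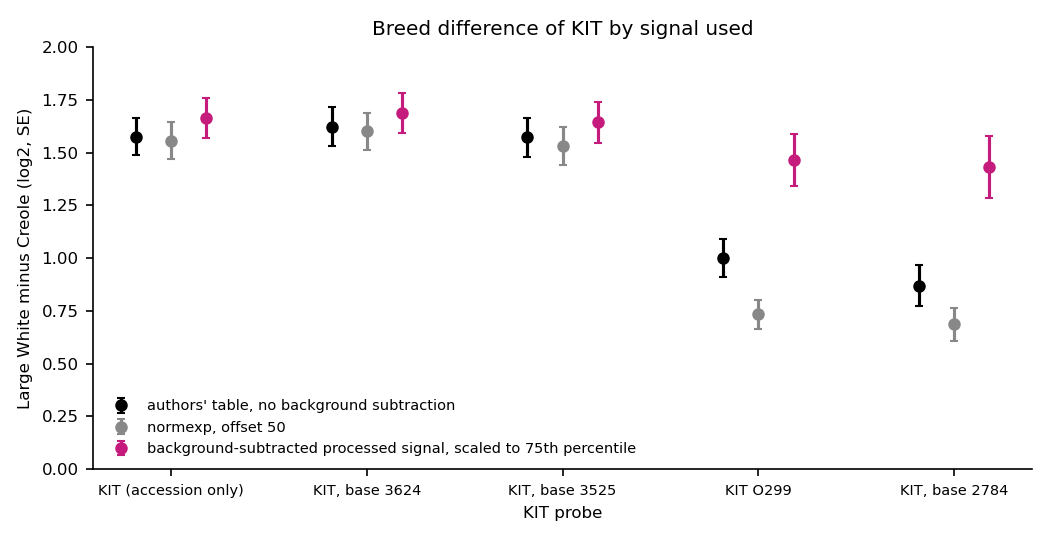
Large White minus Creole difference in log2 units with its SE (y axis, from 0) of the 5 KIT probes (x axis) in the authors' values, after normexp correction and in the background-subtracted processed signal, which was scaled to the 75th percentile. The 3 probes at left stay between 1.53 and 1.69 under all 3, while O299 and the probe at base 2784 range from 0.69 to 1.46.

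The F1 stood near the midpoint of its parents on the log2 scale. With Creole set at 0 and Large White at 1, its position was 0.55 at base 3624, with single F1 arrays from 0.45 to 0.67. It was 0.50 at base 3525 (arrays 0.36 to 0.66), 0.41 on O299 (0.10 to 0.57) and 0.44 at base 2784 (-0.07 to 0.79). The difference between the F1 and the mean of the parents was 0.08 (SE 0.08) at base 3624, -0.01 (SE 0.08) at base 3525, -0.09 (SE 0.08) on O299 and -0.06 (SE 0.08) at base 2784. Each was smaller than the SD between F1 arrays of that probe. On linear intensities the positions were nearer to Creole, at 0.40 for base 3624, 0.36 for base 3525, 0.33 for O299 and 0.37 for base 2784, so whether the F1 sits at the midpoint depends on the scale.

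The KIT probes also rose and fell together among animals of a group. After the mean of each of the 6 groups was removed, the probe at base 3624 correlated with its accession-named copy at r = 0.94, with base 3525 at 0.86, with O299 at 0.68 and with base 2784 at 0.64 over the 33 arrays. The lowest values among the KIT probes were between base 3525 and the upstream pair, 0.51 with O299 and 0.53 with base 2784. The probes share the array and its normalization, and the values are a description. Between the 2 spots of identical sequence the difference had an SD of 0.07 over the arrays. This covers noise between spots only, since both spots share the RNA, its labelling, the hybridisation and the normalization. The spread between LW animals (0.28) and between CR animals (0.23) was wider than that between F1 animals (0.12), a difference that was not tested.

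The breed difference was present on each of the 5 slides. On the probe at base 3624 LW exceeded CR by 1.77 on slide 1, which held 1 array of each breed, and by 1.76, 1.51, 1.20 and 2.04 on slides 2 to 5, with 2 or 3 arrays of each breed. With slide as a fixed block the difference was 1.63 (SE 0.09).

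KITLG stayed close to the limit of detection in all groups. The probe at base 1152 was well above background on 21 of 33 arrays and its copy on 17 of 33. In LW TN the first probe read 5.23, 5.36, 5.40, 5.48 and 5.66, in F1 HS 5.29, 5.56, 5.69, 5.78 and 5.78, and in CR TN 5.41, 5.51, 5.57, 5.82 and 5.89. The LW HS arrays ran from 5.06 to 5.65 (median 5.37), the F1 TN arrays from 5.23 to 5.60 (median 5.49) and the CR HS arrays from 5.26 to 5.66 (median 5.52). All 6 groups overlapped. Only in CR TN was the probe well above background on every array, 5 of 5, against 2 of 6 in CR HS.

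Breed means of KITLG were 5.41 ± 0.18 in LW, 5.53 ± 0.18 in the F1 and 5.56 ± 0.18 in CR (SD, n = 11 each). The LW mean minus the CR mean was -0.15 (SE 0.08) on the log2 scale, and -0.14 (SE 0.09) on the copy, less than 1 SD between animals in either case. In the processed signal of the scanner files it was -0.42 (SE 0.24) and -0.59 (SE 0.32). No banding by breed was seen for the ligand in the authors' values. The 2 spots of the same sequence correlated at r = 0.64 after group means were removed, with an SD of their difference of 0.16, close to the SD of 0.18 between animals. No position of the F1 is given for KITLG because the parents differed by less than that spread.

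**Figure D3:**
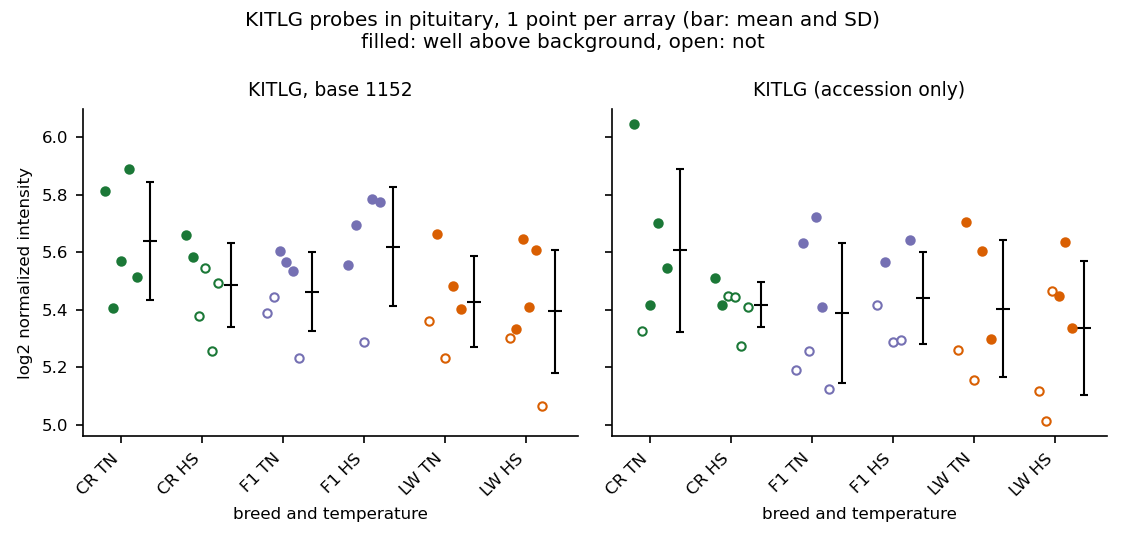
Log2 normalized intensity (y axis) of the KITLG probe at base 1152 and of its copy named by accession in each breed and temperature group (x axis), 1 point per array, filled where the spot was well above background, with the mean and SD in black. All groups overlap between 5.01 and 6.05, and open points occur in 5 of the 6 groups at left and in all 6 at right.

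Heat was the contrast on which neither gene had been chosen. Of the 7 probes, 0 passed an adjusted p of 0.05 in limma for HS against TN with breed in the model, where 10 of 45667 probes (0.0219%) did. None of the 7 had an unadjusted p below 0.05, against 4005 of all 45667 probes. With so few probes, 0 of 7 says little about these genes in particular. At base 3624 KIT differed by -0.07 (SE 0.08, 95% interval -0.22 to 0.09, limma adjusted p = 0.837), and 10 of 17 HS arrays were lower than the mean of the TN arrays of the same breed. The largest difference among the KIT probes was on O299, -0.11 (SE 0.07, limma adjusted p = 0.717), with 13 of 17 HS arrays below. KITLG at base 1152 differed by -0.01 (SE 0.06, 95% interval -0.14 to 0.12, limma adjusted p = 0.983). At base 3624 the sign turned under array weights (0.005) and with LW HS 3 taken as Creole (0.02).

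Within breeds, 0 of 21 comparisons of a probe passed the threshold in limma or had an unadjusted p below 0.05. Of all probes 0% passed in LW, 0% in the F1 and 0% in CR, where 3104, 2593 and 2671 had an unadjusted p below 0.05. KIT at base 3624 differed between HS and TN by -0.16 (SE 0.13) in LW, -0.03 (SE 0.13) in the F1 and -0.004 (SE 0.13) in CR. KITLG at base 1152 differed by -0.03 (SE 0.11), 0.16 (SE 0.11) and -0.15 (SE 0.11) in the same order. The interaction of breed and temperature also passed on 0 of the 7 and on 0% of all probes, of which 1941 had an unadjusted p below 0.05. Its smallest limma adjusted p among the 7 was 0.926, for KITLG at base 1152, with an unadjusted p of 0.146.

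**Figure D4:**
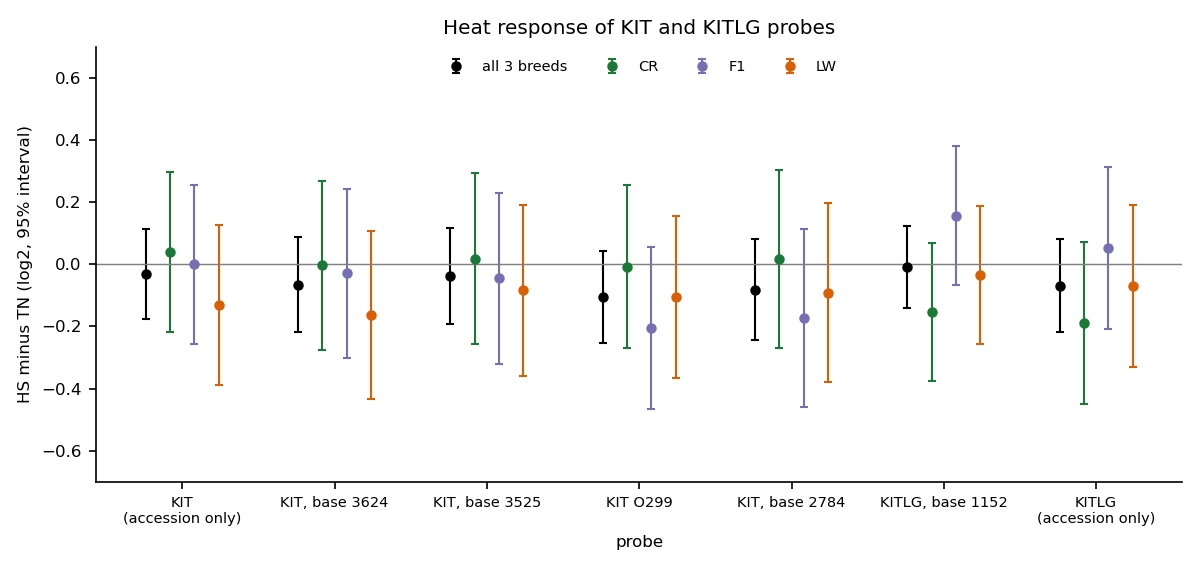
HS minus TN difference in log2 units with its 95% interval (y axis) of the 5 KIT and 2 KITLG probes (x axis), over all breeds in black and within each breed in colour. Every interval includes 0.

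No relation between KIT and KITLG among the animals of a breed passed the threshold. Over 11 animals each, Pearson's r was 0.16 in LW (permutation p = 0.634), -0.14 in the F1 (permutation p = 0.683) and 0.37 in CR (permutation p = 0.266), and all 3 adjusted values were 0.683. Spearman's rho was 0.07 (permutation p = 0.840), -0.12 (permutation p = 0.732) and 0.19 (permutation p = 0.574), with adjusted values of 0.840. Without the 2 arrays farthest from the median of KIT, r was 0.24, 0.06 and 0.01. No r over all breeds is given, since the breeds form separate bands for KIT.

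Genes around KIT in the pathway and in the tissue were then examined through lists, using the brightest probe of each gene. Of 153 genes in 13 lists, 108 were in the table, and 9 of them (8.33%) differed between LW and CR at a limma adjusted p below 0.05, against 6.65% of all probes. The list genes were taken on their brightest probe and the share over all probes was not, so these shares are not strictly alike. An unadjusted p below 0.05 in this contrast was found on 24 of the 108 genes and on 8537 of 45667 probes. The counts of unadjusted p given below for single lists are to be read against that number. The median difference over the 108 genes was 0.04, and over all probes it was -0.001. Under other processing or without single arrays the count of 9 ranged from 6 to 13.

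The close relatives of KIT were small in their breed differences. Of the 8 measured class III receptors and ligands, 0 passed in limma and 1 had an unadjusted p below 0.05, against 8537 of all 45667 probes. Their differences ran from -0.23 to 0.20. PDGFRB, the platelet-derived growth factor receptor of pericytes, had a log2 level of 11.51 ± 0.41 in LW and 11.52 ± 0.43 in CR. IL34, a ligand of CSF1R, had 9.60 ± 0.57 and 9.83 ± 0.66. Of the 7 hormone genes 0 passed as well (2 with an unadjusted p below 0.05), with a median difference of 0.01 and a range from -1.47 for TSHB, the beta subunit of thyrotropin, to 0.30. GH1, POMC, CGA and PRL were the brightest of the list genes, at 19.02, 19.01, 18.99 and 18.87. Quantile normalization sets such values largely by rank, so small differences there say little about equal levels.

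Downstream of the receptor, 1 of 29 adaptors and effectors and 1 of 15 inhibitors and shedding enzymes passed. GRB10, an adaptor that binds activated receptor kinases, rose by 0.71 in LW (SE 0.13, limma adjusted p = 0.000722), with 11 of 11 LW arrays above the CR mean. Of its 6 probes 3 passed and the others ranged from -0.02 to 0.06. DOK1, a docking protein that dampens RAS signalling, rose by 0.57 (SE 0.09, limma adjusted p = 6.87e-05), with levels of 10.35 ± 0.28 in LW, 10.06 ± 0.17 in the F1 and 9.78 ± 0.22 in CR. Its other 2 probes differed by 0.10 and 0.19 and did not pass. Among the bright genes of these lists, the adaptor GRB2 (log2 level 11.92) differed by -0.04 (SE 0.14). CBL (13.22), which ubiquitinates KIT, differed by 0.09 (SE 0.05), and the phosphatase PTPN11 (12.34) by 0.03 (SE 0.13).

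Markers of cells that typically carry KIT gave mixed values. Of 14 mast cell markers 4 were in the table and 0 passed (2 with an unadjusted p below 0.05, against 8537 of all 45667 probes). GATA2, a transcription factor, differed by 0.16 (SE 0.10) and FCER1G, a chain of the IgE receptor that other immune cells also carry, by 0.35 (SE 0.13, limma adjusted p = 0.119). The other 2 lay the other way and are named after their values were seen. HDC, the enzyme that makes histamine, differed by -0.17 (SE 0.08, limma adjusted p = 0.246), with 1 of 11 LW arrays above the CR mean, and MS4A2, the beta chain of the IgE receptor, by -0.08 (SE 0.06). FCER1G and HDC were the pair with an unadjusted p below 0.05. The summed level of the list, nearly all of it GATA2 and FCER1G, ran from 12.18 to 12.99 in LW and from 11.98 to 12.57 in CR. Of 6 progenitor markers 0 passed (1 with an unadjusted p below 0.05), with LMO2 at 0.24 (SE 0.10) and THY1 at -0.10 (SE 0.21). ETV1, the 1 measured marker of interstitial cells of Cajal, differed by -0.10 (SE 0.11).

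Of 9 measured melanocyte markers 3 passed, 2 lower and 1 higher in LW, and 4 had an unadjusted p below 0.05. MITF, the master regulator of melanocytes, fell by 0.28 in LW (SE 0.06, limma adjusted p = 0.00436), and 5 of its 6 probes passed in that direction. SLC45A2, a transporter of the pigment cell, fell by 0.62 (SE 0.15, limma adjusted p = 0.00602), and both of its probes passed. GPR143, a receptor of the melanosome, rose by 0.60 (SE 0.16, limma adjusted p = 0.0131) on its only probe. SOX10, also used by glia, differed by -0.02 (SE 0.13). The summed level of the list, most of which is SOX10, ran from 12.98 to 13.54 in LW and from 12.91 to 13.65 in CR and says little of the dimmer members. TYRP1 had an unadjusted p below 0.05 but did not pass, at -0.67 (SE 0.30, limma adjusted p = 0.208). TYR, which encodes tyrosinase, differed by -0.49 (SE 0.33) and was well above background on 8 of 33 arrays. DCT differed by 0.01 (SE 0.13), MC1R by 0.05 (SE 0.08) and EDNRB by -0.10 (SE 0.11). The part of these cells in the KIT values was not tested.

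Of 6 blood and endothelium markers 1 passed between breeds. CDH5, the cadherin of endothelial junctions, rose by 0.41 in LW (SE 0.13, limma adjusted p = 0.0450). The call was lost without any 1 of 19 single arrays, with adjusted p up to 0.0889. VWF, another endothelial gene, differed by -0.16 (SE 0.15), and PTPRC, the leukocyte antigen CD45, by 0.01 (SE 0.11). The summed level of the list, most of it PTPRC, VWF and PECAM1, ran from 12.84 to 13.87 in LW, 12.77 to 13.38 in the F1 and 12.68 to 13.82 in CR. Of 5 stem and folliculostellate markers and of 4 posterior and intermediate lobe markers 0 passed (1 and 2 with an unadjusted p below 0.05), with S100B at -0.24 (SE 0.12), SOX2 at -0.05 (SE 0.09), AVP at 0.03 (SE 0.04) and OXT at 0.06 (SE 0.06). The other lobe markers, PCSK2 and PAX7, were the 2 with an unadjusted p below 0.05. PCSK2 differed by 0.88 (SE 0.33, limma adjusted p = 0.112), with means of 8.61 in LW, 8.36 in the F1 and 7.72 in CR. PAX7 differed by 0.10 (SE 0.04, limma adjusted p = 0.217). The part of these cells in the KIT values was not tested.

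In the order of pig genes in the Sscrofa11.1 assembly, used here for names and order only, KIT lies on chromosome 8 between PDGFRA and KDR. KDR, the receptor for vascular endothelial growth factor, rose by 0.94 in LW (SE 0.14, limma adjusted p = 3.89e-05). Its levels ran from 9.10 to 10.56 in LW (median 9.71), from 9.05 to 9.92 in the F1 (median 9.43) and from 8.16 to 9.50 in CR (median 8.86). The breeds kept the order seen for KIT, but their ranges overlapped, and all 11 LW arrays lay above the CR mean. This rested on 1 of 3 KDR probes, as the other 2 differed by 0.15 (SE 0.11) and 0.10 (SE 0.06) and did not pass. On the other side, PDGFRA differed by -0.13 and was well above background on 15 of 33 arrays.

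Farther along, SCFD2, 6 genes from KIT, fell by 0.24 in LW (SE 0.05, limma adjusted p = 0.00244), and both of its probes passed. The remaining 6 measured genes of the list did not pass, 3 of which lie 56 to 61 genes from KIT in this assembly, with EXOC1 at -0.09 (SE 0.06) and FIP1L1 at 0.03 (SE 0.04) as the brightest. Beside KITLG on chromosome 5, 1 of 6 measured neighbours passed, GALNT4, a glycosyltransferase 2 genes away, which rose by 0.42 (SE 0.12, limma adjusted p = 0.0337) on 1 of its 2 probes. That call was lost without any 1 of 11 single arrays, with adjusted p up to 0.0686. The brightest of that list, ATP2B1 and DUSP6, differed by -0.03 (SE 0.08) and -0.08 (SE 0.16).

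**Figure D5:**
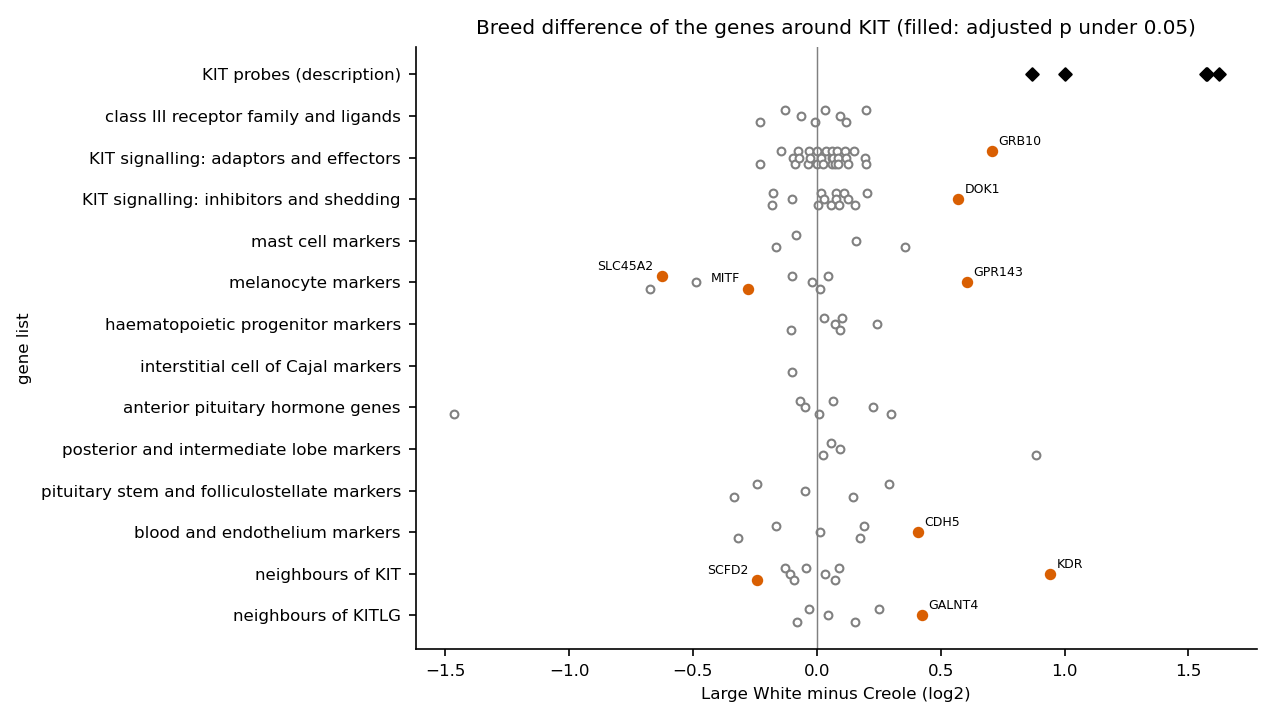
Large White minus Creole difference in log2 units (x axis) of the genes of 13 lists (y axis), 1 point per gene on its brightest probe, filled and named where the limma adjusted p was below 0.05, with the 5 KIT probes as diamonds on top. KDR at 0.94 is the highest of the list genes and lies between the upstream pair of KIT probes at 0.87 and 1.00, below the other KIT probes at 1.57 to 1.62.

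Heat was also tested on the genes of the lists. Of the 108 genes, 1 passed for HS against TN, HBB (beta globin), which fell by 1.15 on the log2 scale (SE 0.21, limma adjusted p = 0.0301), from 10.40 ± 0.64 in TN to 9.30 ± 0.72 in HS. The call was lost without any 1 of 14 single arrays, with adjusted p up to 0.0683. The median over the 108 was -0.02, against 0.01 over all probes.

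The genes whose pattern over all 33 arrays was most like KIT at base 3624, among 10245 named genes, were KDR (r = 0.84), CD55 (0.80), CTSA (0.80), ODF3B (0.79) and DOK1 (0.79). All 5 were higher in LW than in CR, which follows from their likeness to a gene chosen for that difference. For ODF3B the F1 mean of 9.06 was level with the LW mean of 9.07 against 6.63 in CR. With group means removed the 5 most alike were PTPRB (0.74), MEGF10 (0.67), LCAT (0.66), GPRC5B (0.65) and HHEX (0.62), and KDR came at rank 7 with 0.61. Of the endothelial markers on the list, PECAM1 came at rank 35 with 0.55 and CDH5 at rank 214 with 0.45, and no rank is given for VWF. These ranks do not describe endothelium as a whole, whose part in the KIT values was not tested. With the accession-named KIT copy in place of the probe, 3 of the 5 genes were shared in each case, and with group means removed KDR came at rank 61 with 0.50.

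For KITLG the most alike over the arrays as they are were CREBZF (0.75), COL12A1 (0.71), CPED1 (0.70), IGDCC3 (0.70) and SMO (0.70). With group means removed they were TFAP2B (0.71), COL12A1 (0.71), CPED1 (0.71), GPCPD1 (0.69) and CREBZF (0.68). The KITLG probe correlated less with its own copy, at 0.68 as they are and 0.64 with group means removed. It was well above background on only 21 of 33 arrays, so these likenesses concern a signal near background. They were not repeated with the copy. These correlations share arrays and normalization and were picked as the highest among 10245 genes, so they carry no p.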

How the data were processed

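RNA from 33 pituitary samples was hybridised to 1-colour Agilent porcine arrays, 1 array per animal. The submitters' processing notes name Feature Extraction 10.10.1.1 and limma. The deposited log2 values cover 45667 probes, and the authors made them from the median spot intensity by quantile normalization with no background correction. They were used throughout. The deposited scanner files hold raw spot and background intensity, a background-subtracted processed intensity, and a mark per spot (1 or 0, used as a score) that says whether it was well above background. All table columns were matched to a sample. Rebuilding the values from the scanner files gave a median absolute difference of 0.0038 and a largest one of 0.18 log2 units.

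Differences were fitted with limma 3.58.1 in R 4.3.3 over the whole table, with breed and temperature as fixed effects, or with 1 mean per breed-by-temperature group for effects within a breed and the interaction. Tests were two-sided, with Benjamini-Hochberg adjustment over 45667 probes and a threshold of 0.05. Pen, day of slaughter and the parents of each pig, random effects in the study's model, are not in the labels used here, so littermates count as independent. Correlations used 100000 permutations (scipy 1.17.1), and plots used Python 3.11.15 and matplotlib 3.10.9. The fits were tested on simulated data.

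Probes were named by the array files or by accession through a pig gene table (Sscrofa11.1). The probe at base 3624 was used as the brightest KIT probe named by the files, although its copy named by accession was slightly brighter. Members and gene lists were chosen with earlier results of these data known. Named genes were every list gene past the threshold, the 2 brightest of each list, and the 5 most alike to KIT or KITLG. HDC, MS4A2, TSHB, PRL, CGA, TYR, TYRP1, DCT, MC1R, EDNRB, PCSK2, PAX7 and PDGFRA lie outside this rule and were chosen after their values were seen. The same holds for PECAM1 and CDH5 among the likenesses. One gene that this rule names is not reported here. Alternatives were reprocessed scanner intensity, normexp (offset 50), processed signal scaled to the 75th percentile, probes well above background on all arrays, slide as fixed or random block, array weights, no breed term, LW HS 3 as Creole, and each array left out. Processed signal with quantile normalization and median intensity scaled to the 75th percentile were added after seeing the data. The number of arrays and, for KITLG, signal near background limit the precision.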

Additional observations from a re-analysis of the deposited data

How the results depend on the processing

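Across the alternatives, the count of KIT and KITLG probes past the threshold stayed at 0 for HS against TN, within breeds and for the interaction. The Large White minus Creole difference at base 3624 (KIT 3624) ranged from 1.49 with LW HS 3 taken as Creole to 1.69 in the processed signal. The F1 position there moved from 0.55 on the log2 scale to 0.402 on linear intensities. HS minus TN values near 0 turned positive under array weights, to 0.00506 at base 3624, 0.0301 at base 3525, 0.0437 on the KIT copy named by accession and 0.00796 for KITLG at base 1152. With LW HS 3 taken as Creole they were 0.0171, 0.0433 and 0.0496 on the 3 KIT probes in the same order, and KITLG was at 0.0201 after normexp and at 0.0256 in the processed signal with quantile normalization. Without single arrays KITLG ranged from -0.0292 to 0.0155. The count of list genes that changed with heat, 1 (HBB), fell to 0 with array weights, with no breed term and without any 1 of 14 single arrays (range 0 to 1). In the F1, r between KIT and KITLG was 0.0595 without the 2 arrays farthest from the median of KIT, in place of -0.14. With the KIT copy named by accession, a choice made after seeing the data, r was 0.06 in LW, -0.34 in the F1 and 0.37 in CR. SLC45A2 lost its breed call with LW HS 3 taken as Creole (adjusted p = 0.0852), CDH5 after normexp and with LW HS 3 taken as Creole, and GALNT4 in the processed signal, in the median intensity scaled to the 75th percentile and with LW HS 3 taken as Creole. The cause of these changes was not tested. No paired analysis was possible because the labels used here do not give the litter, pen or slaughter day of an animal.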
